A study of Mus musculus with 9 samples.

Results

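The SLC25 family is the set of carrier proteins that move metabolites across the inner membrane of mitochondria. Its members were taken as every gene symbol that reads Slc25a followed by a number, which gave 46 of the 18188 genes measured. The data were poly(A)-selected RNA-seq of cytotoxic lymphocytes, the CD8+ T cells, taken from mouse spleens. There were 5 wild-type (WT) libraries and 4 libraries from cells labelled Rig1 KO, in which the gene of RIG-I, a cytosolic sensor of viral RNA, is disrupted. No treatment, age, strain or tumour was given in the labels for either group, nor how the gene was disrupted or the cells purified, and no label names separate animals, so p-values measure the spread between these libraries, which may be technical. The comparison asks which carriers differ in transcript level between the genotypes.

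Most SLC25 carriers share 1 fold of repeated membrane segments, and each exchanges or co-transports a small molecule such as ADP for ATP, phosphate, citrate, an amino acid, a cofactor or iron. Carriers decide what the matrix can take from and return to the cytosol, so they couple the respiratory chain to cytosolic ATP, and the matrix pathways of folate, haem and fatty acids to the rest of the cell. Activated T cells are known to rebuild their mitochondria and to raise mitochondrial one-carbon metabolism. A few family members sit elsewhere, with Slc25a17 in peroxisomes and Slc25a46 in the outer membrane.

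The libraries held between 15496262 and 17893558 reads, recovered from the TPM values, and any library compared with another of its genotype (16 such pairs) showed more spread than read sampling gives, with chi-square values of 4.39 to 18.8 for each degree of freedom. Ddx58, the older symbol of the RIG-I gene, lay between 63.2 and 67.4 TPM in the 5 WT libraries and between 30.6 and 35.2 TPM in the 4 Rig1 KO libraries, lower but not absent, and which exons the reads cover was not analysed here. The CD8 T cell markers summed to 2857 to 3374 TPM in WT and 4149 to 4618 TPM in Rig1 KO, and 5 of the 6 listed genes were found. B cell markers (7 of 8 found) summed to 156 to 1110 TPM in WT, highest in WT 5 and WT 4, and to 88.7 to 189.9 TPM in Rig1 KO. Platelet markers (4 of 5 found) summed to 180.1 to 241.5 TPM in WT and 31.2 to 39.3 TPM in Rig1 KO, natural killer markers (4 of 4) to 139 to 171 and 328 to 382 TPM, and basophil and mast cell markers (5 of 5) to 11.7 to 46.3 and 207 to 404 TPM. Erythroid markers (7 of 9) summed to 75.0 to 205 and 183 to 325 TPM, neutrophil markers (8 of 8) to 104 to 604 and 142 to 209.5 TPM, monocyte and macrophage markers (6 of 6) to 505 to 1112 and 948 to 1067 TPM, and markers of other T cells (2 of 3) to 10.1 to 43.9 and 6.66 to 11.3 TPM. The neutrophil markers did not move together. Elane rose from a mean of 23.6 to 57.5 TPM, while the means of the others were lower in Rig1 KO, such as S100a8 (90.3 and 33.8 TPM). Most of the natural killer sum was Eomes, with a WT mean of 137.9 TPM against 298.9 TPM for the Rig1 KO libraries. The other natural killer markers were lower on this scale and also rose. Their WT and Rig1 KO means were 7.86 and 25.2 for Ncr1, 3.55 and 9.94 for Klrb1c, and 4.84 and 17.4 for Klra8. These marker values are TPM as deposited, divided by the whole gene span with introns, so they do not compare levels between genes. With exon lengths the WT and Rig1 KO means were 97.0 and 204.7 for Eomes and 22.1 and 77.9 for Klra8. They were 13.9 and 43.8 for Ncr1 and 4.74 and 12.9 for Klrb1c. Which cells the Eomes reads came from was not tested. No found marker was at 0 in all libraries. In such bulk samples a change in the share of a cell type and a change in RNA per cell cannot be told apart, and the part of these other cells in the results was not tested beyond the covariate given below.

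In the Rig1 KO libraries 17 carriers were higher and 5 were lower than in WT, while 16 did not pass the test. The 5 that fell were Slc25a25, Slc25a3, Slc25a33, Slc25a38 and Slc25a5, which carry ATP-Mg, phosphate, pyrimidine nucleotides, glycine and ADP/ATP. The 6 with the largest rise were Slc25a35, Slc25a53, Slc25a24, Slc25a45, Slc25a32 and Slc25a40. The test was limma on log2(TPM + 1), adjusted by the Benjamini-Hochberg method over the 10540 genes that reached 1 TPM in 4 or more libraries, a filter that 38 members passed. Fold changes on the log2 scale below are from this fit, Rig1 KO minus WT, and they understate the change of low genes. Among the tested members 44.7% were called higher, against 33.5% of all tested genes, and 13.2% were called lower, against 12.2%. In either direction the shares were 57.9% and 45.7%. With a log2 change of at least 0.5 in either direction the called shares were 18.4% (7 members) and 19.0%. The groups did not overlap for 21 tested members (55.3%), against 38.1% of all tested genes.

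The median log2 fold change was 0.14 over the members and 0.13 over all tested genes, so small rises near that size hang on how libraries are scaled. After median ratio scaling, which sets the median of all tested genes to 0.00, 9 members were higher and 8 lower, against 22.6% of all tested genes higher and 22.6% lower. The 9 were among the 17, all 5 falls remained, and Slc25a12, Slc25a17 and Slc25a51 joined them. With the mean of the B cell markers as a covariate 9 of the 38 members were higher and 3 lower. Of all 10540 tested genes 2274 were then higher and 622 lower, so calls became fewer among genes at large too. The B cell marker mean ran from 3.54 to 6.03 in WT and from 2.66 to 3.78 in Rig1 KO (log2 scale) and so moved with the genotype. Without Rig1 KO 3 the number higher was 11 of the 38 members and 2945 of the 10540 genes. None of the 22 calls changed direction under any of the 25 alternatives tried, and the calls of 7 members held under all that could be run: Slc25a1, Slc25a3, Slc25a25, Slc25a32, Slc25a33, Slc25a45 and Slc25a53.

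**Figure D1:**
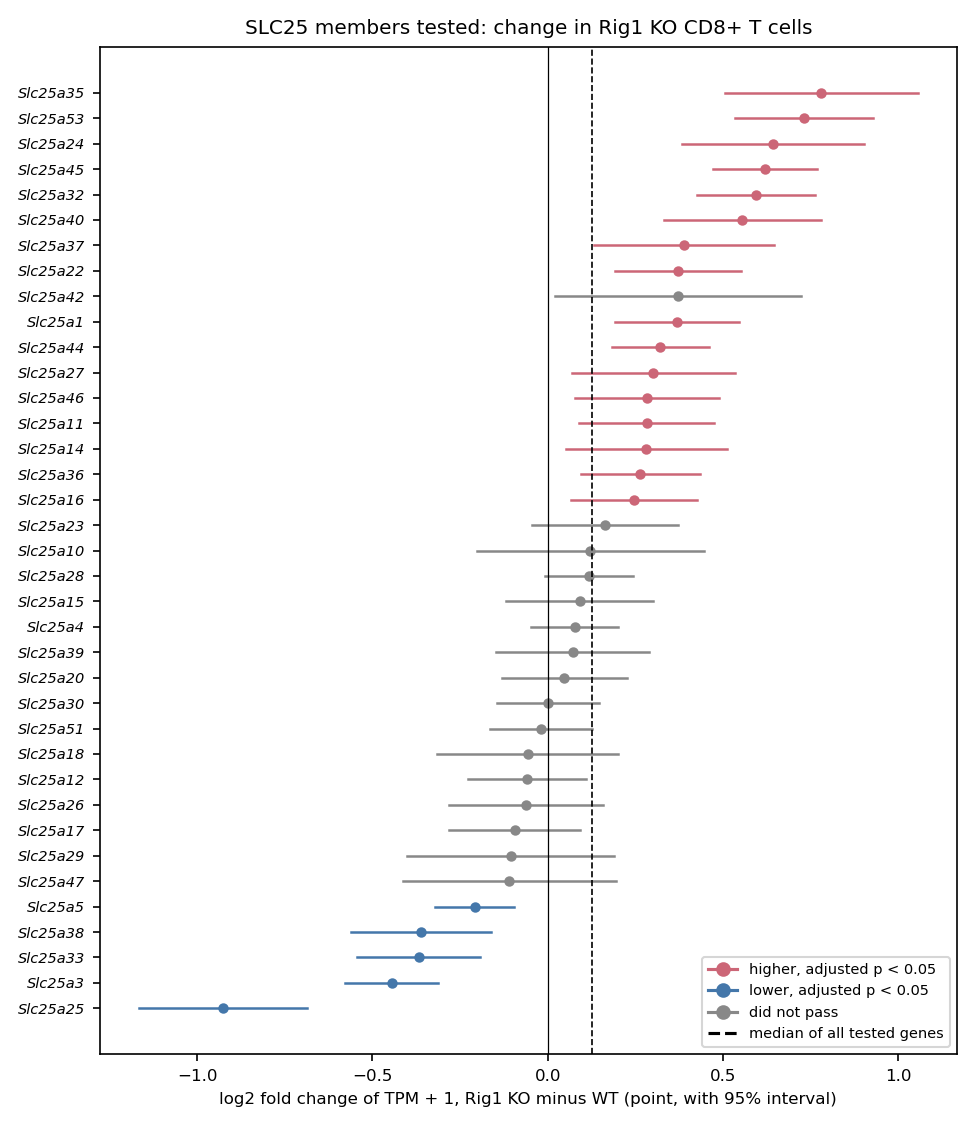
Log2 fold change (x axis, Rig1 KO minus WT) of the tested SLC25 members reported by name (y axis), as a point with its 95% interval from limma, coloured by call. The 5 members that fell lie at the bottom, from Slc25a25 at -0.93 to Slc25a5 at -0.21, and those that rose reach 0.78 for Slc25a35, with the dashed line at the median of all tested genes (0.13).

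The deposited TPM values were divided by the whole span of a gene, introns included, so levels of different genes were compared on TPM recomputed from the recovered reads and exon lengths. Whether the recovered reads lie in exons was not tested. Reads in introns would raise the exon-length level of genes with long introns, such as Slc25a17, whose span is 14.7 times its exon length. On that scale 3 carriers of oxidative phosphorylation led the family. Slc25a5, the main ADP/ATP carrier of dividing cells, averaged 562.9 ± 10.4 over WT (SD, n = 5) against 475.5 ± 34.3 over Rig1 KO libraries (SD, n = 4). Slc25a3, which imports the phosphate that ATP synthase needs, was at 320.6 ± 12.3 and 229.6 ± 13.6, and Slc25a4, the ADP/ATP carrier best known from heart and muscle, at 176 ± 6.31 and 182 ± 15.8. These 3 made up 48.6 ± 0.449% of the summed family level in WT and 41.7 ± 1.66% in Rig1 KO, and the sum itself was 2180 ± 27.4 and 2127 ± 35.9. Each of the 3 lay outside the range of its neighbour in that order. Next in WT came Slc25a51, the NAD+ carrier (79.4 ± 5.14), Slc25a17 (74.1 ± 3.48), the oxoglutarate carrier Slc25a11 (74.0 ± 7.87) and the iron carrier Slc25a37 (71.4 ± 11.7), and the last 3 did not differ beyond their spread. The tested members with the lowest levels were Slc25a35 (2.94 ± 0.604), Slc25a47 (4.76 ± 1.118) and Slc25a18 (5.42 ± 1.08).

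**Figure D2:**
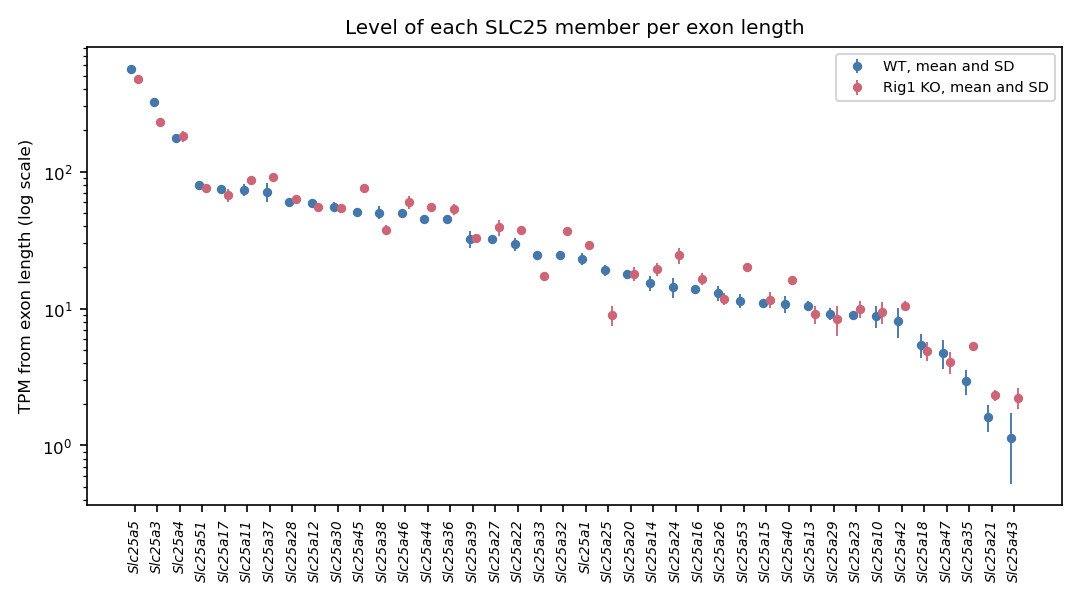
TPM from exon length (y axis, log scale) of the SLC25 members reported by name with at least 20 reads in a library (x axis, ordered by the WT mean), as mean and SD over 5 WT and 4 Rig1 KO libraries. Slc25a5, Slc25a3 and Slc25a4 stand above the rest, and the Rig1 KO points of Slc25a25, Slc25a33 and Slc25a38 lie below their WT points.

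Among the carriers of adenine nucleotides and phosphate, Slc25a5 and Slc25a3 were lower in Rig1 KO, Slc25a4 did not pass, and the calcium-regulated ATP-Mg/phosphate carriers split. Slc25a25, a calcium-regulated ATP-Mg/phosphate carrier also known as a gene switched on quickly by cell stimulation, was at 12.6, 10.7, 10.8, 10.2 and 10.4 TPM in WT 1 to 5 and at 4.37, 4.63, 6.40 and 5.93 TPM in Rig1 KO 1 to 4. Every Rig1 KO library lay below every WT library, and the mean fell 2.05-fold (log2 fold change -0.93, SE 0.109, adjusted p = 7.66e-05). Its paralogue Slc25a24 moved the other way, with 2.38, 2.62, 3.76, 3.02 and 2.97 TPM in WT and 4.63, 5.04, 6.22 and 4.74 TPM in Rig1 KO. No Rig1 KO library reached down to the WT range, and the mean was 1.75-fold higher (log2 fold change 0.64, SE 0.117, adjusted p = 0.00131). Slc25a23, the third such carrier, did not pass at 0.16 (95% interval -0.05 to 0.37, adjusted p = 0.180). A gene on the opposite strand, Naif1, covers 2.7% of the span of Slc25a25 and rose from 18.4 to 28.4 TPM (adjusted p = 0.00747).

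Slc25a3 fell 1.36-fold, from 644 ± 24.1 TPM in WT (613 to 676) to 474 ± 36.3 TPM in Rig1 KO (429 to 504), with no overlap (log2 fold change -0.44, SE 0.0599, adjusted p = 0.000186). Slc25a5 was at 795, 763, 817, 801 and 804 TPM in WT and at 674, 738, 696 and 648 TPM in Rig1 KO. Its groups did not overlap either, but the fall was only 1.15-fold (log2 fold change -0.21, SE 0.0508, adjusted p = 0.00677), and it was -0.01 (adjusted p = 0.867) after quantile normalization and -0.22 (adjusted p = 0.0939) with the B cell covariate. Slc25a4 did not pass, with 251 ± 9.84 and 265 ± 17.6 TPM (log2 fold change 0.08, 95% interval -0.05 to 0.20, adjusted p = 0.293). The ADP/ATP carriers are near copies of each other with related pseudogenes elsewhere, and how shared reads were divided is not given in the sources used here.

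**Figure D3:**
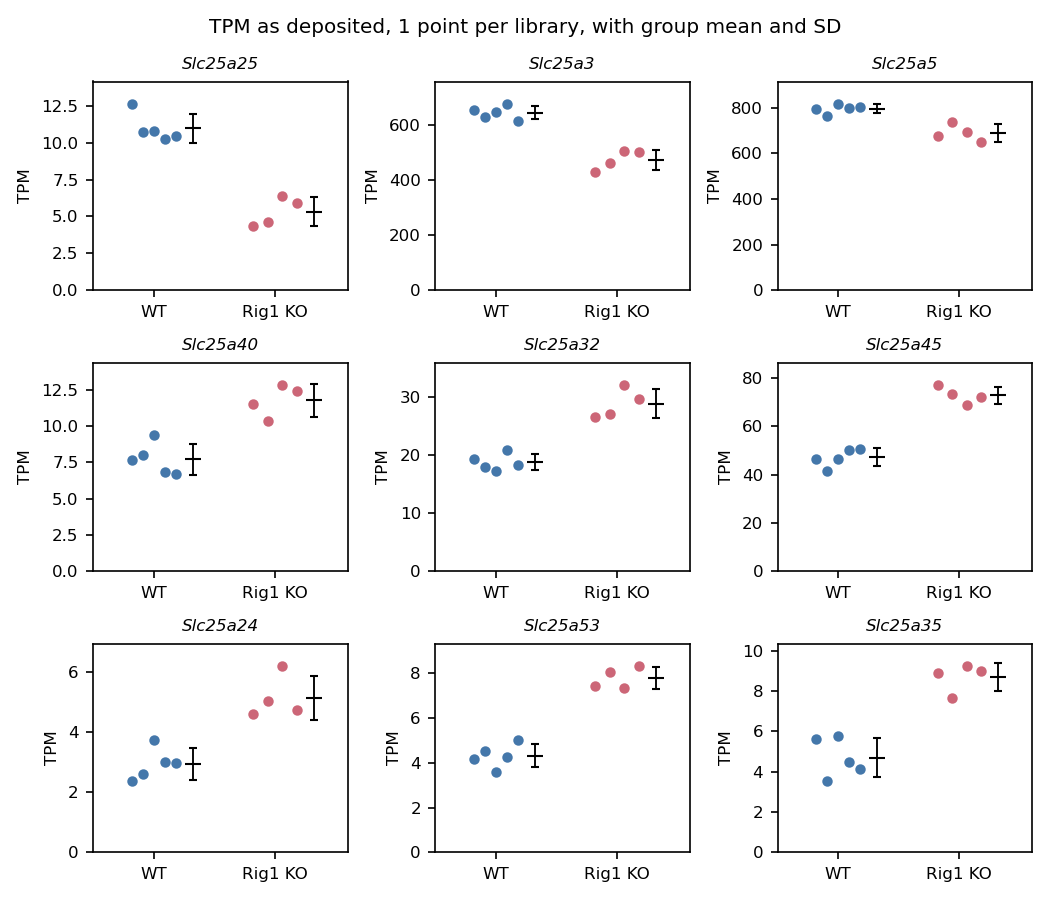
Deposited TPM (y axis, from 0) of 9 SLC25 members in each library, 1 point per library, with the group mean and SD beside the points. The Rig1 KO libraries lie below all WT libraries for Slc25a25, Slc25a3 and Slc25a5 and above all WT libraries for the other 6, from Slc25a40 to Slc25a35.

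The pyrimidine nucleotide carriers, which supply the precursors of mitochondrial DNA and RNA, moved apart. Slc25a33, known as a growth factor responsive gene, fell from 4.15 ± 0.262 TPM in WT (3.91 to 4.55) to 2.99 ± 0.218 TPM in Rig1 KO (2.67 to 3.14), with a log2 fold change of -0.37 (SE 0.0794, adjusted p = 0.00349). Slc25a36 rose from 32.4 ± 1.51 TPM (30.8 to 34.8) to 39.2 ± 4.60 TPM (34.9 to 45.6), with a log2 fold change of 0.26 (SE 0.0767, adjusted p = 0.0165). Neither pair of groups overlapped, but the rise of Slc25a36 was not called once libraries were scaled by median ratios (0.13, adjusted p = 0.0788), nor with the B cell covariate, where it was 0.36 (adjusted p = 0.0595).

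Promoter windows of 300 bases around annotated gene starts were found in RefSeq (build GRCm38.p6, an older build than the one named for the reads) for 36 members, 46 windows in all. They were searched on both strands for 4 motifs known from promoters. The cAMP response element TGACGTCA, the site of CREB and ATF factors, stood in 2 member windows, 1 of the 3 of Slc25a25 and that of Slc25a36, and in 1.79% of the 32851 windows of all genes. The E-box CACGTG, the site of MYC family factors among others, stood in 8 member windows and 7.15% of all windows, the NRF1-type GCATGCGC in 2 and 2.71%, and the ETS-type CCGGAA in 12 and 14.9%. The 8 windows with CACGTG belong to 7 members, since overlapping windows of Slc25a14 share a site. In the window of Slc25a36 the TGACGTCA and CACGTG matches do not overlap. The 250 bases before the start, 5′ to 3′, are shown for Slc25a25 and Slc25a36, the windows with the cAMP response element, and for Slc25a33, the relative of Slc25a36. Capitals mark TGACGTCA and CACGTG.
Slc25a25, chr2:32424067-32424316, minus strand: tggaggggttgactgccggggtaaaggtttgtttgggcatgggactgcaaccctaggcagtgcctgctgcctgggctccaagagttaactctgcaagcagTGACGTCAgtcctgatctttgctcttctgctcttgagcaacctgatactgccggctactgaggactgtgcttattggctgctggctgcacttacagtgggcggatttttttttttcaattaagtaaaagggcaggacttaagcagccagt
Slc25a36, chr9:97111042-97111291, minus strand: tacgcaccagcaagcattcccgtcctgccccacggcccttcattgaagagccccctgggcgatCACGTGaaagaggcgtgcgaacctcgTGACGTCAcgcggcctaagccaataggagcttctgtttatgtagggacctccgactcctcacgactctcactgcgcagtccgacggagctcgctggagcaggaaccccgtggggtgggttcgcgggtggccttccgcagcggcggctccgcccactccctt
Slc25a33, chr4:149774268-149774517, minus strand: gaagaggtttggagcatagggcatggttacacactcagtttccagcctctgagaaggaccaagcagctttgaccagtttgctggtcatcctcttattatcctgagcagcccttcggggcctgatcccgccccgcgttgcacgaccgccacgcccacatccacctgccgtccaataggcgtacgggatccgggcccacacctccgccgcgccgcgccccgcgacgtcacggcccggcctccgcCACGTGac
The full element thus stands 150 and 161 bases before a start of Slc25a25, which fell, and of Slc25a36, which rose. A match describes these letters only.

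Carriers of cofactors were higher or did not pass. Slc25a32, which carries folate or flavin into the matrix, was at 19.4, 17.9, 17.4, 20.9 and 18.4 TPM in WT and 26.6, 27.1, 32.1 and 29.8 TPM in Rig1 KO. The lowest Rig1 KO library lay well above the highest WT library, and the mean was 1.54-fold higher (log2 fold change 0.59, SE 0.0761, adjusted p = 0.000135). Slc25a16, linked to coenzyme A, rose from 7.01 ± 0.343 to 8.53 ± 0.983 TPM (log2 fold change 0.25, adjusted p = 0.0293), a rise that did not pass after median ratio scaling (0.12, adjusted p = 0.147) or, at 0.38, with the B cell covariate (adjusted p = 0.0561). Slc25a42, the carrier of coenzyme A and adenine nucleotides, was at 2.69 TPM in WT 3 and 4.86 to 5.63 TPM in the other WT libraries, and at 5.70 to 6.79 TPM in Rig1 KO. Its groups did not overlap, yet it did not pass (log2 fold change 0.37, 95% interval 0.02 to 0.72, adjusted p = 0.0787), and it passed with the B cell covariate (0.87, adjusted p = 0.00880). The S-adenosylmethionine carrier Slc25a26, Slc25a17 and Slc25a51 did not pass (log2 fold changes -0.06, -0.09 and -0.02, adjusted p = 0.634, 0.386 and 0.831).

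Carriers tied to glutathione, iron and haem changed unevenly. Slc25a40, a glutathione carrier, was at 7.67, 7.99, 9.37, 6.88 and 6.69 TPM in WT and 11.5, 10.3, 12.8 and 12.4 TPM in Rig1 KO. All Rig1 KO libraries were above all WT libraries, and the mean was 1.53-fold higher (log2 fold change 0.56, SE 0.101, adjusted p = 0.00129), though the call was lost with the B cell covariate (0.37, adjusted p = 0.109). Slc25a39, its close relative, did not pass, with 48.5 ± 7.15 and 50.7 ± 3.72 TPM (log2 fold change 0.07, 95% interval -0.15 to 0.29, adjusted p = 0.580). Slc25a38, which brings glycine into the matrix for haem synthesis, fell from 26.5 ± 3.02 TPM (23.7 to 29.8) to 20.4 ± 1.79 TPM (18.67 to 22.04), with no overlap (log2 fold change -0.36, SE 0.0903, adjusted p = 0.00785). With the B cell covariate its change was -0.26 (adjusted p = 0.214).

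Slc25a37, the iron importer mitoferrin-1 that is abundant in erythroid precursors, was at 25.9, 22.5, 22.9, 30 and 33.5 TPM in WT and 35.3, 32.1, 39.3 and 34.6 TPM in Rig1 KO. WT 5 lay above Rig1 KO 2, so the groups overlapped, and the rise was 0.39 on the log2 scale (SE 0.116, adjusted p = 0.0187), with no call after median ratio scaling (0.26, adjusted p = 0.0594) or without Rig1 KO 3 (0.34, adjusted p = 0.0579). The erythroid marker sum was 84.7, 75.0, 83.3, 205 and 123 TPM in WT 1 to 5 and 183, 265, 325 and 317 TPM in Rig1 KO 1 to 4. WT 4 and WT 5 were thus the highest WT libraries for both, as they were for the B cell, neutrophil, monocyte and macrophage and other T cell sums. Within Rig1 KO the erythroid sum was lowest in Rig1 KO 1 and Slc25a37 was lowest in Rig1 KO 2. The part of erythroid cells in the result was not tested. Slc25a28, the iron importer of other tissues, did not pass (54.7 ± 3.48 and 59.3 ± 1.35 TPM, log2 fold change 0.12, 95% interval -0.01 to 0.24, adjusted p = 0.117).

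Carriers of carboxylates and amino acids that changed, apart from Slc25a38, were higher. Slc25a1, which exports citrate for fatty acid and sterol synthesis, rose 1.30-fold from 45.1 ± 4.57 to 58.5 ± 4.43 TPM (log2 fold change 0.37, SE 0.0801, adjusted p = 0.00358). Slc25a11, the oxoglutarate/malate carrier of the malate-aspartate shuttle, rose from 130 ± 14.1 to 157 ± 13.01 TPM (0.28, adjusted p = 0.0217), without a call after median ratio scaling (0.15, adjusted p = 0.144), and its overlapping neighbour Rnf167, on the opposite strand over 7.5% of its span, rose by 0.31 on the log2 scale (adjusted p = 0.00150). Slc25a22, a glutamate carrier, rose from 58.8 ± 5.93 to 76.3 ± 6.004 TPM (0.37, adjusted p = 0.00382), and the branched-chain amino acid carrier Slc25a44 from 30.1 ± 1.93 to 37.8 ± 1.87 TPM (0.32, adjusted p = 0.00196). For each of these 4 genes the groups did not overlap, and with the B cell covariate Slc25a22 and Slc25a44 did not pass (0.21 and 0.29, adjusted p = 0.235 and 0.0727).

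The other tested carriers of carboxylates, amino acids and acylcarnitine did not pass. Slc25a12, the aspartate/glutamate carrier of the same shuttle, was at 12.2 ± 0.701 and 11.7 ± 1.10 TPM (log2 fold change -0.06, 95% interval -0.23 to 0.11, adjusted p = 0.548). The glutamate carrier Slc25a18 was at -0.06 on the log2 scale (adjusted p = 0.708) and the dicarboxylate carrier Slc25a10 at 0.12 (adjusted p = 0.518). The ornithine carrier Slc25a15 was at 0.09 (adjusted p = 0.458) and the basic amino acid carrier Slc25a29 at -0.11 (adjusted p = 0.541). Slc25a20, which brings acylcarnitines in for fatty acid oxidation, was at 0.05 (95% interval -0.13 to 0.23, adjusted p = 0.658).

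Members with unsettled or other roles, 5 of the 38 tested, held 3 of the 6 largest rises. They are a mixed group that includes Slc25a46 and Slc25a47. Carriers of the uncoupling-like branch changed less. Slc25a45 was at 46.3, 41.6, 46.5, 50.3 and 50.7 TPM in WT and 77.0, 73.4, 68.7 and 72.0 TPM in Rig1 KO, a clear gap between the groups. Its mean was 1.55-fold higher (log2 fold change 0.62, SE 0.0667, adjusted p = 4.21e-05). Slc25a53 was at 4.15, 4.50, 3.59, 4.26 and 5.003 TPM in WT and 7.41, 8.04, 7.34 and 8.31 TPM in Rig1 KO. It was 1.81-fold higher with no overlap (log2 fold change 0.73, SE 0.0892, adjusted p = 0.000100). The gene Zcchc18 lies on the opposite strand within 9.3% of the Slc25a53 span and was not analysed here, and reads from either could not be told apart without strand. Slc25a35 was at 5.63, 3.52, 5.76, 4.47 and 4.13 TPM in WT and 8.91, 7.66, 9.24 and 8.98 TPM in Rig1 KO. It had the largest rise among the members tested on deposited TPM, 1.85-fold (log2 fold change 0.78, SE 0.125, adjusted p = 0.000567), on 32 to 89 reads per library. With exon lengths Slc25a53 (0.77) and Slc25a24 (0.74) ranked above it (0.69), and with the B cell covariate it did not pass (0.55, adjusted p = 0.0612). Rangrf, which covers 30.2% of its span on the opposite strand, was at 0.527 and 1.25 TPM.

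Smaller rises were seen for Slc25a46, an outer membrane protein that shapes mitochondria (13.5 ± 1.03 to 16.8 ± 2.20 TPM, log2 fold change 0.28, adjusted p = 0.0288), and for the uncoupling-like carriers Slc25a27 (13.5 ± 1.17 to 17.0 ± 2.75 TPM, 0.30, adjusted p = 0.0376) and Slc25a14 (2.54 ± 0.313 to 3.30 ± 0.448 TPM, 0.28, adjusted p = 0.0472). None of these 3 passed after median ratio scaling (0.15, 0.17 and 0.18 for Slc25a46, Slc25a27 and Slc25a14) or without Rig1 KO 3 (0.23, 0.21 and 0.22). With the B cell covariate they did not pass either, at 0.24, 0.41 and 0.28 (adjusted p = 0.288, 0.107 and 0.271). Slc25a30 was level, at 25.6 ± 1.75 and 25.5 ± 1.33 TPM (log2 fold change 0.00, 95% interval -0.14 to 0.15), and Slc25a47 did not pass (-0.11, adjusted p = 0.540).

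The 8 members under the filter were Slc25a13, Slc25a21, Slc25a31, Slc25a34, Slc25a41, Slc25a43, Slc25a48 and Slc25a54. The aspartate/glutamate carrier Slc25a13 (citrin) had 121 to 176 reads per library, over a span 46.3 times its exon length. Whether those reads lie in exons was not tested. With exon lengths Slc25a13 was tested at -0.18 (SE 0.114, adjusted p = 0.211). With exon lengths Slc25a21 (23 to 46 reads) was tested at 0.36 (adjusted p = 0.0637) and Slc25a43 (3 to 20 reads) at 0.65 (SE 0.219, adjusted p = 0.0309). Their spans are 99.5 and 18.8 times their exon lengths, and whether their reads lie in exons was not tested either. Slc25a43 met the filter only with the help of the Rig1 KO libraries, where it was higher, so its adjusted p is not taken as support for a rise. The testis-type ADP/ATP carrier Slc25a31 had 27 reads over the 5 WT libraries, 12 of them in 1 library, and 5 over the 4 Rig1 KO libraries. Slc25a34, Slc25a41, Slc25a48 and Slc25a54 had at most 5 reads in any library, so no difference was detectable at this depth. The highest TPM in a library was 0.662 for Slc25a13, 0.0727 for Slc25a21, 0.477 for Slc25a31, 0.412 for Slc25a34, 0.150 for Slc25a41, 0.389 for Slc25a43, 0.0369 for Slc25a48 and 0.107 for Slc25a54.

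Related carriers were then compared within each library, since the ratio of 2 members hardly depends on how libraries are scaled. For 8 of 12 pairs the log2 ratio differed between genotypes by an exact permutation test over all 126 ways to place the genotype labels, two-sided and adjusted over the pairs. Slc25a24/Slc25a25 shifted most. Its log2 ratio averaged -1.87 ± 0.323 over the 5 WT libraries (SD) and -0.04 ± 0.198 over the 4 Rig1 KO libraries (SD), a difference of 1.83 (exact p = 0.00794, the smallest this test can give, adjusted p = 0.0238). Slc25a23/Slc25a25 rose by 1.22, Slc25a33/Slc25a36 fell by 0.73 and Slc25a4/Slc25a5 rose by 0.29, each with the same exact p and no overlap. The pairs Slc25a14/Slc25a30 (0.37), Slc25a39/Slc25a40 (-0.54), Slc25a23/Slc25a24 (-0.61) and Slc25a22/Slc25a18 (0.47) passed too (exact adjusted p = 0.0381, 0.0408, 0.0408 and 0.0476). The iron pair Slc25a28/Slc25a37 did not (-0.28, exact adjusted p = 0.0635), nor did Slc25a16/Slc25a42, Slc25a10/Slc25a11 and Slc25a15/Slc25a29. Pairs share members, so the 8 are not independent. Many of their members were already called in these libraries, as were 45.7% of all tested genes. How often the ratio of unrelated genes differs was not tested, so the count of 8 is not a result particular to related carriers. With 1 library fewer the smallest exact p rises to 0.0179 or 0.0286, so several pairs must lie near it before any can pass. No pair then passed without WT 1, WT 2, Rig1 KO 1, Rig1 KO 2 or Rig1 KO 3, while 5 passed without Rig1 KO 4. Without WT 3, WT 4 or WT 5 there were 7 that passed.

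**Figure D4:**
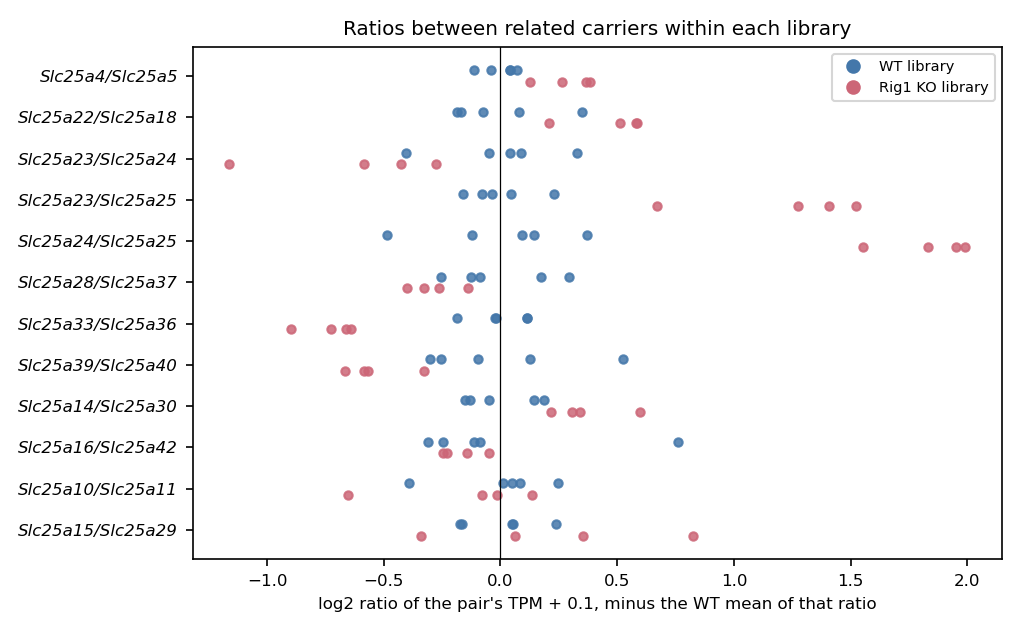
Log2 ratio of the TPM + 0.1 of 2 related SLC25 members within a library (x axis), with the WT mean of that pair subtracted, for 12 pairs (y axis), 1 point per library. The Rig1 KO points of Slc25a24/Slc25a25 lie about 1.83 to the right of WT, and those of Slc25a33/Slc25a36 lie about 0.73 to the left with no overlap.

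Genes that work with the carriers were taken from 5 lists of 75 symbols, of which 69 were found and 62 tested, and 16 of them were higher and 6 lower. These are 25.8% and 9.68% of those tested, against 33.5% and 12.2% of all tested genes. After median ratio scaling 12 were higher and 16 lower (19.4% and 25.8%, against 22.6% each). Their median log2 fold change was 0.08, against 0.13 for all tested genes. Of 13 tested genes that import carriers into the inner membrane, 2 were higher and 1 was lower. The small chaperones Timm9 and Timm10, which escort unfolded carriers between the membranes, rose from 18.04 ± 1.75 to 31.2 ± 3.73 TPM (log2 fold change 0.76, adjusted p = 0.000103) and from 13.1 ± 1.72 to 21.2 ± 3.80 TPM (0.65, adjusted p = 0.00159). The outer membrane receptor gene Tomm20 fell from 98.7 ± 3.56 to 72.3 ± 3.06 TPM (-0.45, adjusted p = 5.28e-05).

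Of 18 tested genes of other mitochondrial transporters, 4 were higher, Sfxn1, Sfxn2 and Sfxn3 among them, and 2 lower (Mpc2 and Smdt1). Sideroflexins are a separate family that includes serine carriers. Sfxn3 was at 102 ± 5.82 and 147 ± 10.3 TPM (log2 fold change 0.52, adjusted p = 9.12e-05). Sfxn2 was at 8.27 ± 0.496 and 11.97 ± 0.957 TPM (0.48, adjusted p = 0.000425), but did not pass with the B cell covariate (0.34, adjusted p = 0.0545). Sfxn4 did not pass (0.19, adjusted p = 0.160), and Sfxn5 was under the filter. The fall of Smdt1 (-0.32, adjusted p = 0.0289), part of the mitochondrial calcium channel, did not pass without WT 4, WT 5, Rig1 KO 3 or Rig1 KO 4 in turn (-0.31 to -0.21) or with the covariate (-0.34, adjusted p = 0.173). Mpc2, a subunit of the pyruvate carrier, fell from 12.2 ± 1.46 to 7.57 ± 0.820 TPM (-0.62, adjusted p = 0.000642). Mpc1, the other pyruvate carrier gene listed, did not pass and lay on the other side of 0 (0.21, adjusted p = 0.0818). Of 21 tested enzymes that use carried substrates, 6 were higher and 1 lower. Cpt2, which acts on the acylcarnitines that Slc25a20 imports, rose from 5.17 ± 0.580 to 9.23 ± 0.325 TPM (0.73, adjusted p = 5.70e-05), and the flavin enzyme gene Flad1 from 36.1 ± 3.80 to 47.4 ± 2.27 TPM (0.39, adjusted p = 0.00193). Got1, the cytosolic transaminase of the malate-aspartate shuttle, fell from 30.3 ± 2.51 to 19.4 ± 1.58 TPM (-0.62, adjusted p = 0.000128).

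Of the family members that carry other symbols, 3 were tested and 2 were higher. Mtch1 rose from 32.01 ± 3.53 to 43.1 ± 2.91 TPM (log2 fold change 0.42, adjusted p = 0.00206) and the uncoupling protein gene Ucp2 from 469 ± 52.2 to 587 ± 24.2 TPM (0.33, adjusted p = 0.00555), while Mtch2 did not pass (-0.02, adjusted p = 0.799). Of 7 tested regulators of mitochondrial genes, 2 were higher and 2 lower. Gabpa and Esrra, which encode transcription factors of nuclear genes for mitochondrial proteins, rose by 0.38 and 0.29 (adjusted p = 0.00250 and 0.00793), and Esrra did not pass after median ratio scaling (0.15, adjusted p = 0.0791). The coactivator gene Ppargc1b fell by 0.34 on the log2 scale (adjusted p = 0.0106) and Myc by 0.19 (adjusted p = 0.0140). With the B cell covariate neither passed (-0.27 and -0.10, adjusted p = 0.214 and 0.384), and Ppargc1b did not pass without Rig1 KO 1 and Rig1 KO 2 (-0.24, adjusted p = 0.0693) nor Myc without WT 4 and WT 5 (-0.15, adjusted p = 0.0676).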

How the data were processed

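The deposited values are TPM, 1 column per library per the file headers. The submitters' processing notes name fastp, featureCounts and the build mm39 (GRCm39); the aligner, annotation release and lengths are not given in the sources used here. Reads were recovered from the TPM values as the smallest whole numbers in the ratios of each gene's values (100% of genes, relative tolerance 2e-12). For all 46 members the implied length was within 1% of the gene span, introns included, in GENCODE M21 (GRCm38), which served only for lengths, names and overlaps.

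The 38 members that reached 1 TPM in 4 or more libraries entered the fit of all 10540 such genes with limma 3.58.1 (R 4.3.3), on log2(TPM + 1), with a mean-variance trend, over 5 WT and 4 Rig1 KO libraries, at an adjusted p of 0.05. The scripts were tested on simulated data with known changes. Ratios were log2 of TPM + 0.1. Alternatives covered pseudocounts, filters, scaling, lengths, left-out libraries, a B cell covariate and a replicate block. Per-library values were given for called members with a log2 change of at least 0.5, for Slc25a25 and Slc25a5 and, chosen after their values were seen, Slc25a37. From each partner list up to 3 genes with the smallest p were named by the rule. Sfxn1, Sfxn4, Sfxn5, Mpc1, Smdt1, Myc and overlapping neighbours were added after their values were seen. The members, lists and pairs were chosen with earlier results of these data known. A few genes that enter the counts are not reported here by name.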

Additional observations from a re-analysis of the deposited data

Results flagged for a closer look

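In 76 groups of library values (38 tested members in WT and in Rig1 KO), 5 libraries (6.58%) stood further from the rest of their group than 95% of chance samples would by Dixon's criterion, a rate close to the 1 in 20 that chance gives. They were Slc25a25 in WT 1 (12.6 TPM, above the other WT libraries), Slc25a42 in WT 3 (2.69 TPM, below the others), Slc25a47 in WT 5 (1.10 TPM, below), Slc25a27 in WT 2 (11.4 TPM, below) and Slc25a16 in Rig1 KO 3 (9.99 TPM, above). Without Rig1 KO 3 the log2 fold change of Slc25a16 was 0.18 (adjusted p = 0.0701 by limma).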

How the results depend on the processing

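Over 25 alternatives the calls of 7 of the 22 called members held wherever the member was tested, and no called member changed sign. The number called higher, 17, was 9 after median ratio scaling, 9 after quantile normalization, 9 with the B cell covariate, 11 to 16 when single libraries were left out (lowest without Rig1 KO 3) and, in alternatives chosen after seeing the data, 8 without Rig1 KO 3 and Rig1 KO 4 and 7 with median ratio scaling plus the covariate. Of all 10540 tested genes 3526 were called higher. That number fell too, to 2381 after median ratio scaling, 2552 after quantile normalization and 2274 with the B cell covariate. It was 2835 to 3610 without single libraries, 2165 without Rig1 KO 3 and Rig1 KO 4, and 1192 with median ratio scaling plus the covariate. The number called lower, 5, was 8 after median ratio scaling, 3 with the covariate and 5 without any single library. For all tested genes it was 1291, with 2384, 622 and 1101 to 1285 in the same settings. Of all genes 4817 were called, 2896 with the covariate, 2475 with both, and 4036 to 4813 when single libraries were left out. Of the partner genes 22 were called, 8 with both and 20 to 23 when single libraries were left out. The pairs whose ratio differed were 8, but 2 of 7 with a mean TPM of at least 5 in both members and 0 to 7 when single libraries were left out. They were 0 without WT 4 and WT 5, 0 without Rig1 KO 1 and Rig1 KO 2 and 0 without Rig1 KO 3 and Rig1 KO 4. The smallest exact p is 0.0286, 0.0476 and 0.0476 there. After adjustment a pair can then pass only where most or all pairs lie at that value, so these counts do not show that the differences were lost. The groups did not overlap for 8, 7 and 8 of the 12 pairs, against 6 with all libraries, though smaller groups overlap less easily.

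The replicate numbers did not pair the libraries, since deviations of same-numbered libraries correlated at 0.097, -0.06, -0.1 and -0.072 across genes, and Rig1 KO 1 alone correlated best with its own number. With the replicate block 14 of the 38 members were higher and 5 lower, against 3595 and 1182 of the 10540 genes. Of the 16 members that did not pass, 7 passed in some alternative with the sign of the main fit. They were Slc25a12, Slc25a15, Slc25a17, Slc25a23, Slc25a42, Slc25a47 and Slc25a51. Slc25a30 passed in some alternative with its sign reversed (lowest adjusted p = 0.0379 by limma). Among the 16 members 14 changed sign somewhere, as did Mtch2 and the pairs Slc25a16/Slc25a42 and Slc25a10/Slc25a11. The cause was not tested. These are log2 fold changes or differences in log2 ratio. After median ratio scaling the values were -0.0038 for Slc25a10, -0.031 for Slc25a15, -0.078 for Slc25a20, -0.019 for Slc25a28, -0.13 for Slc25a30, -0.064 for Slc25a39 and -0.061 for Slc25a4. After quantile normalization the values were -0.042 for Slc25a10, -0.055 for Slc25a15, -0.11 for Slc25a20, -0.0025 for Slc25a28, -0.13 for Slc25a30 and -0.042 for Slc25a39. Without Rig1 KO 1 and Rig1 KO 2 the values were -0.0047 for Slc25a10, 0.046 for Slc25a12, 0.052 for Slc25a17, 0.055 for Slc25a18, 0.053 for Slc25a51 and 0.053 for Mtch2. Without Rig1 KO 3 and Rig1 KO 4 the values were -0.066 for Slc25a15, -0.046 for Slc25a30 and 0.060 for Slc25a10/Slc25a11. With median ratio scaling plus the covariate the values were -0.036 for Slc25a15, -0.22 for Slc25a20, -0.12 for Slc25a23, -0.046 for Slc25a28, -0.31 for Slc25a30 and -0.11 for Slc25a4. With recovered reads scaled by library total the values were -0.019 for Slc25a20 and -0.069 for Slc25a30. With the B cell covariate the values were -0.039 for Slc25a20, 0.0095 for Slc25a26 and -0.12 for Slc25a30. With exon lengths the value was -0.036 for Slc25a30. Without WT 4 and WT 5 the values were -0.043 for Slc25a30 and 0.0023 for Mtch2. With the replicate block the value was -0.035 for Slc25a30. When single libraries were left out the values ran from -0.0041 to 0.086 for Slc25a20, from -0.19 to 0.0042 for Slc25a29, from -0.035 to 0.022 for Slc25a30, from -0.062 to 0.017 for Slc25a51, from -0.058 to 0.016 for Mtch2, from -0.24 to 0.023 for Slc25a16/Slc25a42 and from -0.25 to 0.014 for Slc25a10/Slc25a11.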
